A study of Homo sapiens with 8 samples.

Results

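DNA repair and checkpoint genes were followed during exposure of DOHH2 cells to the BET bromodomain inhibitor BAY1238097 or to the solvent DMSO. DOHH2 is an established line of human B-cell lymphoma. The 35 members were a named list of genes of homologous recombination (15), the Fanconi anaemia pathway (5), mismatch repair (3), end joining (5) and the checkpoint (6), with PARP1 beside them, and the list was matched to the symbols of the array's annotation. Of these, 31 had a named probe and 28 were above background and tested, among 10436 genes tested of 20046 with a named probe. BRCA2, RBBP8, FANCA and FANCD2 had no named probe in the annotation used here and were not analysed. RAD50, XRCC4 and ATR were not above background on enough arrays to be tested. RAD50 and ATR were above it on none of the 8 arrays, and XRCC4 was above it on 1, a DMSO array. The groups were BAY1238097 for 4, 8, 12 and 24 h and DMSO for 4, 8, 12 and 24 h, all of the same line grown in vitro, with 1 Illumina bead array for each treatment and time. No time point was repeated, the labels name neither separate cultures nor a dose. The p-values therefore measure the spread over the 4 times of 1 course, which may be partly technical, and the number of arrays limits the precision.

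Cells mend a double-strand break either by homologous recombination, which copies an intact sister chromatid and works in S and G2 phase, or by end joining, which ligates the ends directly. The Fanconi anaemia pathway unlocks DNA cross-links, mismatch repair removes replication errors, and the ATM and ATR kinases with CHEK2 and CHEK1 below them halt the cell cycle while damage persists. Many of these genes are transcribed mainly in late G1 and S phase. In germinal centre B cells, from which lines such as DOHH2 descend, mismatch repair and end joining also act on the breaks and lesions made by antibody gene diversification. BET proteins bind acetylated histones at active genes, and BAY1238097 displaces them.

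Levels are quantile normalised log2 intensities of the brightest probe of each gene, and a difference is BAY1238097 minus DMSO at the same time on that scale. Log2 differences of dim probes are compressed, because no background was subtracted, and levels of different probes are not comparable. Mean probe intensities were 262 to 366 on the BAY1238097 arrays and 264 to 419 on the DMSO arrays. Over the probes above background, the mean log2 brightness of BAY1238097 minus DMSO arrays was -0.01 at 4 h, -0.26 at 8 h, -0.24 with 12 h of exposure and -0.32 by 24 h. The part of brightness in the results was not tested. As a check of the label, 6 of 9 B-cell markers were above background on 4 or more arrays, and CD79A, CD79B, CD37 and MME on all 8, whereas the brightest probes of the B-cell factors PAX5 and BCL6 were above it on none. Of 10 T and NK cell markers and 10 stromal markers 0 were above background on 4 or more arrays, and of 9 myeloid markers 2 were, CD14 and CD68.

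Most members lay below DMSO at 12 and 24 h. Over 4, 8, 12 and 24 h the median difference of the 28 members was 0.05, -0.04, -0.13 and -0.43, against medians of 0.01, 0.01, 0.004 and 0.004 over all genes tested. At 4 h 13 of the 28 lay below their DMSO partner, at 8 h 16, at 12 h 24 and at 24 h 26, where 47.6%, 48.1%, 49.1% and 49.4% of all genes tested did. A difference of -0.5 or lower, a threshold chosen after the values were seen, was reached by 0 members at 4 h (5.81% of all genes), 2 at 8 h (7.82%), 1 at 12 h (7.60%) and 11 at 24 h (9.17%). A difference of 0.5 or higher was reached by 1 member at 4 h (CLSPN, 5.79% of all genes), 0 at 8 h (6.26%), 0 at 12 h (6.51%) and 1 at 24 h (XRCC2, 8.98%). With each array scaled to its median instead, the members' medians were 0.02, -0.25, -0.28 and -0.65, with all genes at -0.001, -0.11, -0.10 and -0.12, and 23 of the 28 members lay below DMSO at 8 h. Only ATM and XRCC2 lay above DMSO at 24 h. Each time holds 1 array per group, so these single-time values have no replicate check. In a bulk culture, fewer cells in a cell cycle phase and less RNA per cell cannot be told apart. 14 of the 28 members were above DMSO at 4 h and below it at 24 h, as were 19.6% of all genes tested.

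**Figure D1:**
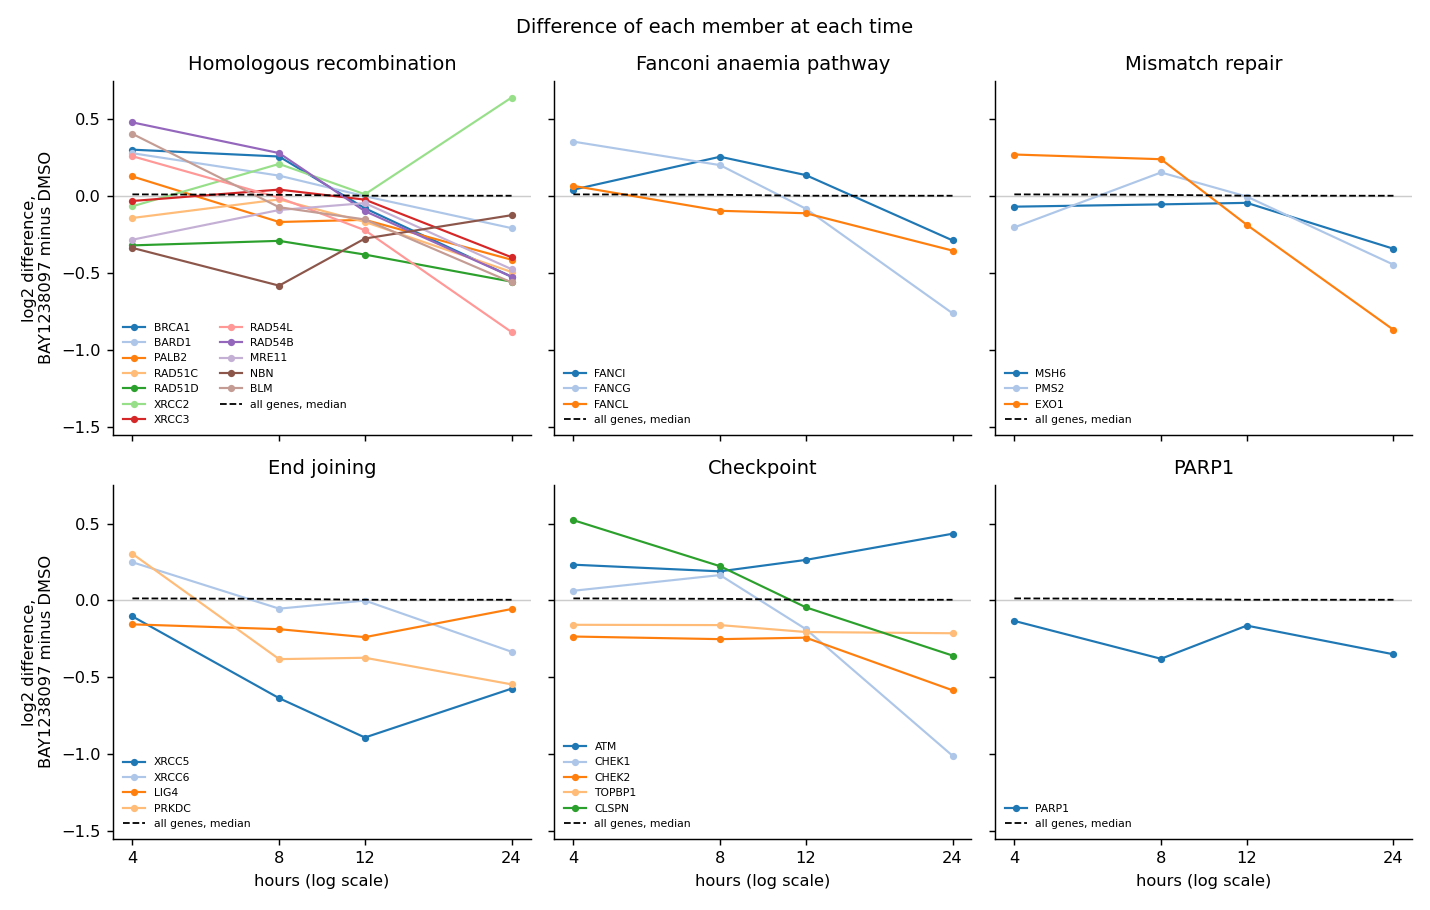
Log2 difference (BAY1238097 minus DMSO) of each tested member against hours on a log scale, with 1 panel per class and the median of all genes dashed. At 4 h the members spread from -0.33 to 0.52, and at 24 h from -1.01 to 0.64, with 26 of 28 below 0.

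Averaged over the 4 times, 6 members fell with BAY1238097 (RAD51D, NBN, XRCC5, CHEK2, TOPBP1 and PARP1) and ATM rose, while 21 did not pass an adjusted p of 0.05 in limma. Over all genes tested, 15.5% were higher and 14.8% lower by the same test, so the share of members lower (6 of 28) stood only a little above the background and the share higher below it. The median effect of the members was -0.13, against 0.01 over all genes, and 22 of the 28 estimates were negative. Without the 24 h arrays that median was -0.01. Without the 12 h arrays 0 of the 28 members passed in limma, without the 8 h arrays 1 (RAD51D) and without the 24 h arrays 3 (RAD51D, NBN and XRCC5), whereas without the 4 h arrays 9 did. Over all genes, 644 rose and 647 fell without the 12 h arrays, and 663 and 611 without the 8 h arrays. Without the 24 h arrays 1208 rose and 1223 fell, and without the 4 h arrays 2085 and 2036. The number of calls thus moved over all genes too. With each array scaled to its median in place of quantile normalization, 10 members fell and 0 rose, and over all genes 806 rose and 2426 fell, against 1619 and 1541. That scaling moved the median of all genes from 0.01 to -0.07. Adding background correction to it gave 10 and 0 again, with the median of all genes at -0.10.

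**Figure D2:**
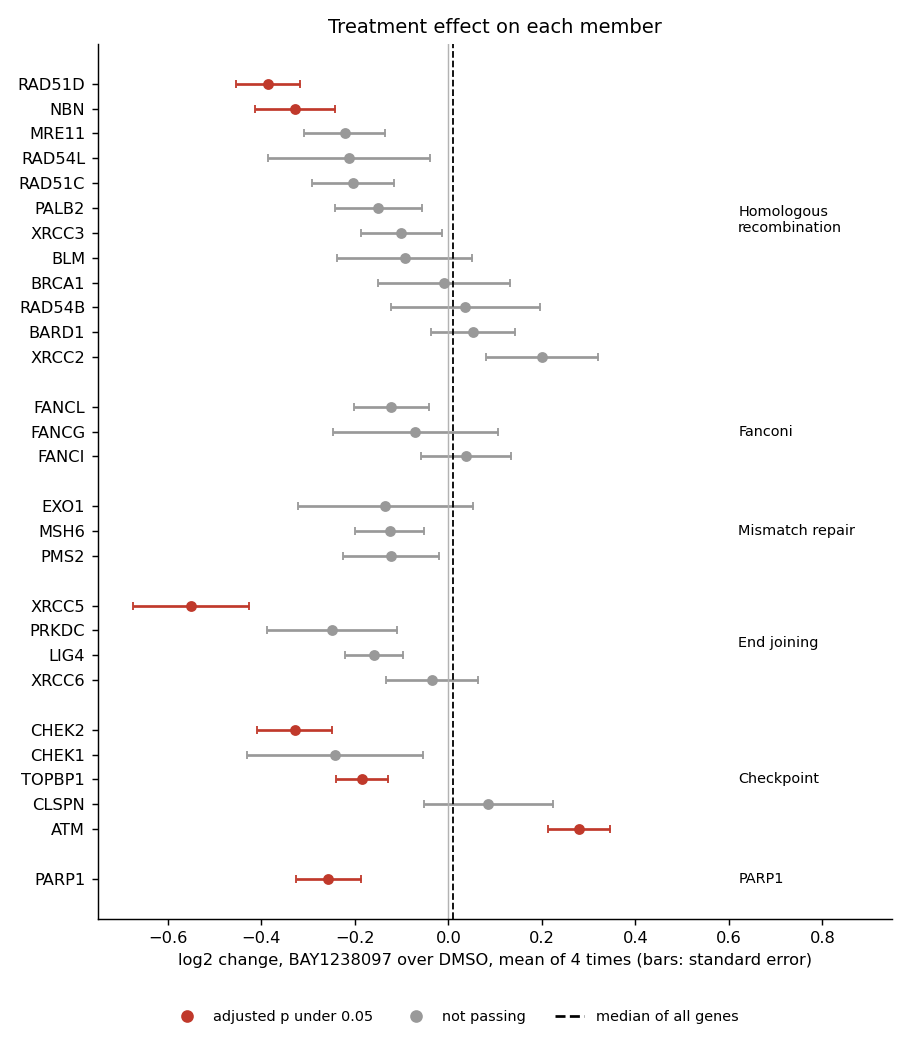
Log2 change of each tested member with BAY1238097 over DMSO from the fit with the time point as a factor (points, bars give the standard error, 4 times), grouped by class, with members past an adjusted p of 0.05 in red. XRCC5 lies lowest at -0.55 and ATM highest at 0.28.

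Among genes of homologous recombination, 2 of 12 fell, 0 rose, and the class median moved from 0.05 at 4 h to -0.48 at 24 h. RAD51D, a subunit of a complex that acts early in homologous recombination, had levels of 6.98, 7.26, 7.42 and 7.03 at 4, 8, 12 and 24 h with BAY1238097, against 7.30, 7.55, 7.80 and 7.59 with DMSO. Every BAY1238097 array lay below its DMSO partner, by 0.29 to 0.55, although the groups overlapped across times. RAD51D fell by 0.39 ± 0.07 (SE, 4 times), 1.31-fold lower, with an adjusted p of 0.00885, and its adjusted p was 0.0521 without the 12 h arrays. A second probe of RAD51D, above background on 2 of 4 BAY1238097 and 4 of 4 DMSO arrays, differed by -0.32 on average.

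NBN, which with MRE11 and RAD50 forms the complex that senses and trims broken ends, had levels of 8.68, 8.76, 9.17 and 9.26 with BAY1238097, against 9.02, 9.34, 9.45 and 9.38 with DMSO. In this brightest probe the difference of NBN was widest at 8 h (-0.58) and narrowest at 24 h (-0.12). A dimmer probe of NBN differed by -0.39, -0.39, 0.001 and -0.14, so the probes disagree on the time course. NBN fell by 0.33 ± 0.08 (adjusted p = 0.0286), and its adjusted p was 0.114 when the 8 h arrays were left out and 0.0968 when the 12 h arrays were. MRE11, its nuclease partner, had levels of 7.56, 7.86, 8.06 and 7.77 with BAY1238097 and 7.84, 7.95, 8.10 and 8.24 with DMSO. In this brightest probe MRE11 was lower at all 4 times, but its mean change of -0.22 ± 0.09 did not pass (adjusted p = 0.0991). A dimmer probe of MRE11 was above DMSO at 4 h (0.13) and another at 8 h (0.09). Both were below DMSO at their other times, with mean differences of -0.12 and -0.25.

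The tumour suppressor BRCA1 and its partner BARD1, which together form a ubiquitin ligase, crossed DMSO during the course. BRCA1 had levels of 8.26, 8.68, 8.28 and 7.89 with BAY1238097, against 7.96, 8.42, 8.36 and 8.41 with DMSO. It was thus higher at 4 and 8 h, by 0.30 and 0.26, and lower at 24 h by -0.52, with a mean change of -0.01 ± 0.14. Its second probe gave 0.09, 0.24, -0.17 and -0.76 at the 4 times. The difference of BRCA1 changed by -0.33 ± 0.07 per doubling of hours, which did not pass (treatment by time, limma adjusted p = 0.0602). It passed with median scaling (0.0433) and without the 4 h or 8 h arrays (0.00189 and 0.0226), but not without the 12 h or 24 h arrays. The change of -0.19 ± 0.06 per doubling for BARD1 did not pass either (0.117). BARD1 differed by 0.28, 0.13, 0.001 and -0.21, and PALB2, which bridges BRCA1 to the BRCA2 protein, by 0.13, -0.17, -0.15 and -0.41. Neither mean change passed (0.05 ± 0.09 and -0.15 ± 0.09, adjusted p = 0.695 and 0.270).

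In their brightest probes, the other recombination genes differed most at 24 h. RAD51C, a partner of RAD51D in that complex, had 4 BAY1238097 arrays of 9.41 to 9.79, all below the 4 DMSO arrays of 9.81 to 9.95. Its change of -0.20 ± 0.09 did not pass (adjusted p = 0.126). In the dimmer probes of RAD51C above background the groups overlapped. One differed by -0.11, -0.23, -0.06 and -0.20 at the 4 times, with a mean of -0.15. Another differed by 0.15, -0.13, -0.03 and -0.15, with a mean of -0.04. In the brightest probe, all BAY1238097 arrays lay below all DMSO arrays for 2 of the 28 members, RAD51C and XRCC5. The same held for 9.57% of all genes tested. XRCC3, which forms a complex with RAD51C, stayed between -0.03 and 0.04 of DMSO at 4, 8 and 12 h and was at -0.40 at 24 h. XRCC2 stood apart with levels of 9.92, 9.66, 9.48 and 10.11 under BAY1238097, against 9.99, 9.44, 9.47 and 9.47 under DMSO, so that its 24 h difference was 0.64. A dimmer second probe of XRCC2 had a 24 h difference of -0.07, and the mean change of 0.20 ± 0.12 did not pass (adjusted p = 0.255).

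The DNA translocases RAD54L and RAD54B, which move along DNA during strand exchange, and the helicase BLM, which dissolves joined chromosomes, changed in their response over time. RAD54L had levels of 8.41, 8.31, 8.22 and 7.86 with BAY1238097, against 8.15, 8.32, 8.44 and 8.74 with DMSO. The BAY1238097 levels went down at each step and the DMSO levels went up at each step, and the arrays crossed near 8 h. The difference of RAD54L changed by -0.44 ± 0.07 per doubling of hours (treatment by time, limma adjusted p = 0.0333). RAD54B had levels of 8.09, 8.19, 8.05 and 7.64 with BAY1238097, against 7.61, 7.91, 8.14 and 8.16 with DMSO, higher at first and lower at the end (-0.40 ± 0.06 per doubling, adjusted p = 0.0335). BLM had levels of 8.38, 8.09, 7.91 and 7.64 with BAY1238097, against 7.98, 8.16, 8.06 and 8.20 with DMSO, and was below DMSO from 8 h on (-0.36 ± 0.06 per doubling, adjusted p = 0.0351).

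Of the 3 measured Fanconi genes 0 passed for the mean effect. FANCG, a subunit of the core ubiquitin ligase complex, had levels of 9.34, 9.52, 9.29 and 8.81 with BAY1238097, against 8.98, 9.32, 9.37 and 9.57 with DMSO. It was above DMSO by 0.36 and 0.20 at 4 and 8 h and below it by -0.76 at 24 h, a change of -0.43 ± 0.08 per doubling of hours (adjusted p = 0.0393). FANCL, the catalytic subunit of the same complex, differed by 0.07, -0.09, -0.11 and -0.35. FANCI, the subunit of the clamp that this ligase modifies, differed by 0.04, 0.26, 0.14 and -0.29. The mean changes of FANCL and FANCI were -0.12 ± 0.08 and 0.04 ± 0.10 (adjusted p = 0.301 and 0.799).

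Of the 3 measured mismatch repair genes 0 passed for the mean effect, and all 3 lay lowest relative to DMSO at 24 h. EXO1, the exonuclease that removes the strand with the error and also trims breaks for recombination, had levels of 8.90, 8.82, 8.77 and 8.12 with BAY1238097, against 8.62, 8.57, 8.96 and 8.98 with DMSO. Its difference went from 0.27 at 4 h to -0.87 at 24 h, by -0.46 ± 0.09 per doubling of hours (adjusted p = 0.0457), and the second probe of EXO1 gave 0.07 and -0.82 at those times. MSH6, which recognises mismatches, had levels of 10.74, 10.91, 10.68 and 10.42 with BAY1238097 and 10.81, 10.96, 10.72 and 10.76 with DMSO. It lay within 0.07 of DMSO up to 12 h and at -0.34 at 24 h. PMS2, an endonuclease of the pathway, differed by -0.20, 0.16, -0.001 and -0.44. PMS2 has closely related copies in the genome, and its probes may bind their transcripts.

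Among end joining genes, XRCC5, the larger subunit of the Ku dimer that caps broken ends, had the widest mean change of all members. Its levels were 9.34, 9.31, 9.38 and 9.41 with BAY1238097, against 9.44, 9.94, 10.27 and 9.99 with DMSO. The BAY1238097 arrays stayed between 9.31 and 9.41 while the DMSO arrays were higher from 8 h on, and all 4 lay below all DMSO arrays. XRCC5 fell by 0.55 ± 0.12, 1.47-fold lower (adjusted p = 0.0180). Leaving out the 8 h arrays gave an adjusted p of 0.0855, and leaving out the 12 h arrays 0.0770. XRCC6, the other Ku subunit, did not follow it in its brightest probe, with differences of 0.25, -0.05, -0.001 and -0.33 and a mean of -0.04 ± 0.10. A dimmer probe of XRCC6 gave 0.04, -0.28, -0.41 and -0.30, so the probes disagree on the size.

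PRKDC encodes the DNA-dependent kinase that Ku recruits. Its levels were 9.20, 9.24, 9.58 and 9.43 with BAY1238097, against 8.90, 9.62, 9.96 and 9.98 with DMSO, above DMSO at 4 h (0.30) and below it later (-0.38, -0.37 and -0.55). The mean change of -0.25 ± 0.14 did not pass (adjusted p = 0.221), but without the 4 h arrays PRKDC fell by 0.43 (adjusted p = 0.00417). Its 3 other probes were not above DMSO at 4 h (-0.10, -0.02 and -0.02) and had mean differences of -0.21 to -0.42. LIG4, the ligase that seals the ends, was lower at all 4 times (-0.16, -0.19, -0.24 and -0.06) and did not pass (-0.16 ± 0.06, adjusted p = 0.0955).

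Checkpoint genes went both ways. ATM, the kinase activated by double-strand breaks, had levels of 9.15, 9.40, 9.72 and 10.15 with BAY1238097, against 8.92, 9.21, 9.45 and 9.72 with DMSO. It was higher than its DMSO partner at every time, by 0.23, 0.19, 0.26 and 0.43, while it also went up with culture time in both groups. ATM rose by 0.28 ± 0.07, 1.21-fold (adjusted p = 0.0214), and a second probe gave 0.30 on average. The adjusted p of ATM was 0.0677, 0.0947 and 0.0717 when the 8, 12 or 24 h arrays were left out. Scaling arrays to their median lowered the change of ATM to 0.08 (adjusted p = 0.417), and to 0.06 with background correction (0.645).

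CHEK2, the kinase that ATM activates, had levels of 8.33, 8.63, 8.72 and 8.40 with BAY1238097, against 8.56, 8.88, 8.96 and 8.98 with DMSO. CHEK2 lay below DMSO by 0.23 to 0.25 up to 12 h and by 0.58 at 24 h, and it fell by 0.33 ± 0.08, 1.26-fold lower (adjusted p = 0.0234). A second probe of CHEK2 was above DMSO at 4 h, with differences of 0.12, -0.20, -0.14 and -0.30 and a mean of -0.13. Leaving out the 8, 12 or 24 h arrays gave CHEK2 adjusted p-values of 0.0783, 0.0773 and 0.0579, and averaging its probes 0.0580. CHEK2 also has related copies in the genome. TOPBP1, which activates ATR at stalled forks, had levels of 9.75, 9.20, 8.38 and 8.69 with BAY1238097, against 9.91, 9.36, 8.59 and 8.91 with DMSO. Its differences stayed between -0.16 and -0.21 while its level varied more with time than with treatment. TOPBP1 fell by 0.18 ± 0.06 (adjusted p = 0.0493), which became 0.149, 0.199 and 0.141 when the 8, 12 or 24 h arrays were left out, 0.123 with a variance trend, 0.0611 with the stricter background filter and 0.0698 after background correction.

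CHEK1, the kinase below ATR, had the lowest single difference of the members. Its levels were 9.48, 9.90, 9.53 and 8.83 with BAY1238097, against 9.42, 9.73, 9.72 and 9.84 with DMSO. CHEK1 was near DMSO at 4 h (0.06) and 8 h (0.16) and lower at 24 h, by -1.01. Neither its mean change (-0.24 ± 0.19, adjusted p = 0.377) nor its treatment by time (-0.42 ± 0.11 per doubling, adjusted p = 0.0865) passed. Treatment by time for CHEK1 did pass without the 4 h or 8 h arrays (adjusted p = 4.97e-05 and 0.0208). Its slope ranged from -0.75 without the 4 h arrays to -0.13 without the 24 h arrays, where it did not pass. CLSPN, the adaptor claspin through which ATR activates CHEK1, had levels of 7.32, 7.36, 7.24 and 6.86 with BAY1238097, against 6.79, 7.13, 7.29 and 7.22 with DMSO. Its difference went from 0.52 at 4 h, the highest of the members, to -0.36 at 24 h, by -0.35 ± 0.06 per doubling of hours (adjusted p = 0.0351).

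PARP1, which senses strand breaks and marks them with poly(ADP-ribose), had levels of 11.73, 11.57, 11.41 and 11.32 with BAY1238097, against 11.87, 11.95, 11.57 and 11.68 with DMSO. PARP1 was lower at every time, by 0.13 to 0.38. It fell by 0.26 ± 0.07, 1.19-fold lower (adjusted p = 0.0338). Leaving out the 8, 12 or 24 h arrays gave PARP1 adjusted p-values of 0.153, 0.0944 and 0.107.

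The treatment effect changed with time for some members. In limma 6 of the 28 (RAD54L, RAD54B, BLM, FANCG, EXO1 and CLSPN) had a difference that fell with time and 0 one that rose, against 1.70% and 1.82% of all genes tested. The estimate was negative for 24 of the 28 members and for 51.4% of all genes. With BAY1238097 all 6 were above DMSO at 4 h and below it at 24 h. Without the 24 h arrays 5 members passed, 3 of them the same (RAD54B, BLM and CLSPN), while RAD54L (adjusted p = 0.0695), FANCG (0.124) and EXO1 (0.137) did not. Without the 12 h arrays 2 passed, RAD54L and FANCG, and the others had adjusted p-values of 0.0525 to 0.0646. Without the 4 h or the 8 h arrays 11 and 9 passed, all 6 among them. Over all genes tested, a falling difference passed for 703 without the 24 h arrays and for 80 without the 12 h arrays. Without the 4 h or the 8 h arrays 485 and 486 genes did, against 177 in the full fit. The slopes of RAD54L, FANCG and EXO1 were -0.30, -0.26 and -0.26 without the 24 h arrays. CLSPN had an adjusted p of 0.0522 with median scaling, and EXO1 one of 0.0673 with no filter on dim probes and 0.0557 with its probes averaged. With array weights 0 members and 0 of all genes passed, with adjusted p-values of 0.0761 to 0.125 for the 6.

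**Figure D3:**
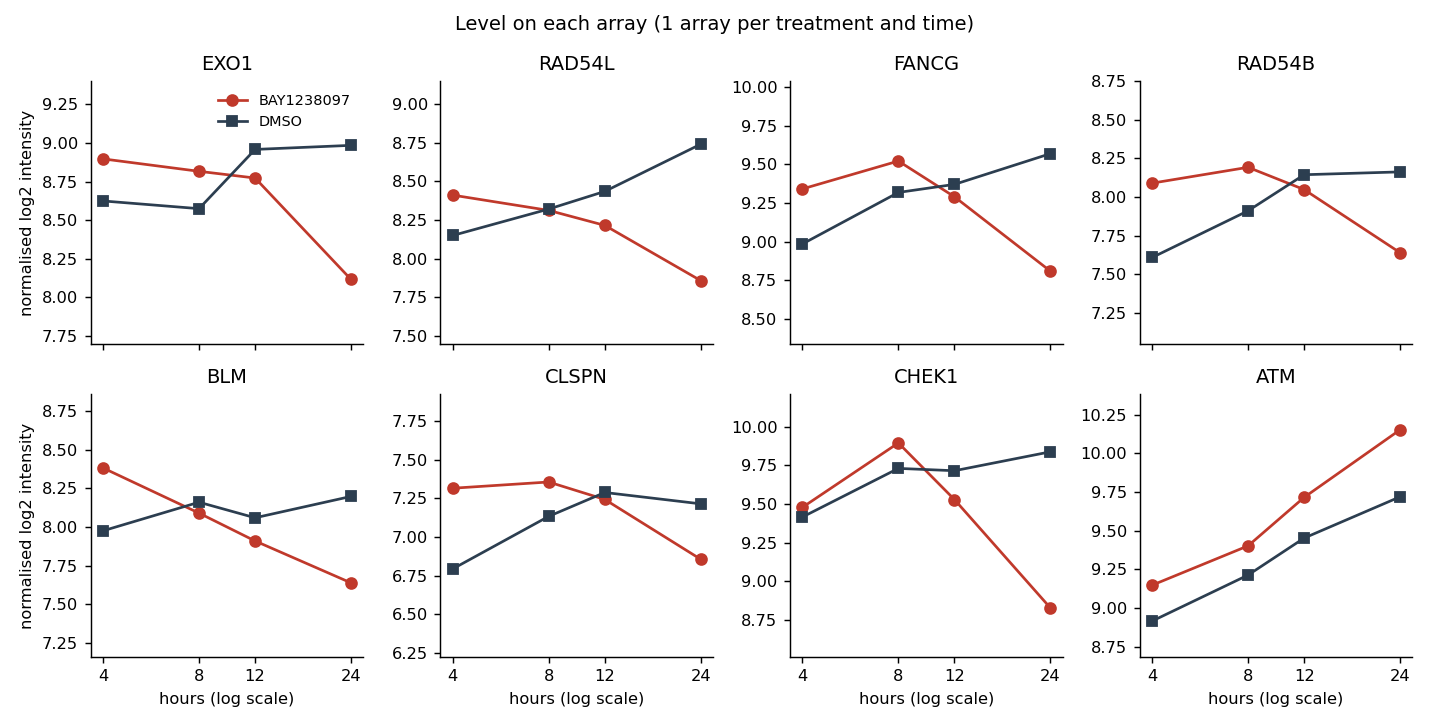
Normalised log2 intensity on each array against hours on a log scale for the 6 members whose difference fell with time, and for CHEK1 and ATM (BAY1238097 red circles, DMSO dark squares, 1 array per point). The lines of the 6 cross between 4 and 12 h, whereas ATM stays above DMSO at every time.

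The S phase genes moved with this pattern. Of 24 measured S phase markers, 10 had a difference that fell with time, among them MCM2, MCM4, MCM5, MCM6 and MCM7, subunits of the replicative helicase, and 0 one that rose. Their median difference was 0.15, -0.07, -0.28 and -0.76 at the 4 times, and 14 of them were at -0.5 or lower at 24 h. The summed linear intensity of the 25 S phase markers with a probe was 20750 to 30050 on the BAY1238097 arrays, against 26757 to 34493 on the DMSO arrays. Of 25 markers of G2 and M phase, 1 had a difference that fell with time, and their medians were 0.08, 0.20, 0.04 and -0.29. The part of the S phase share of the cultures in the members' differences was not tested.

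**Figure D4:**
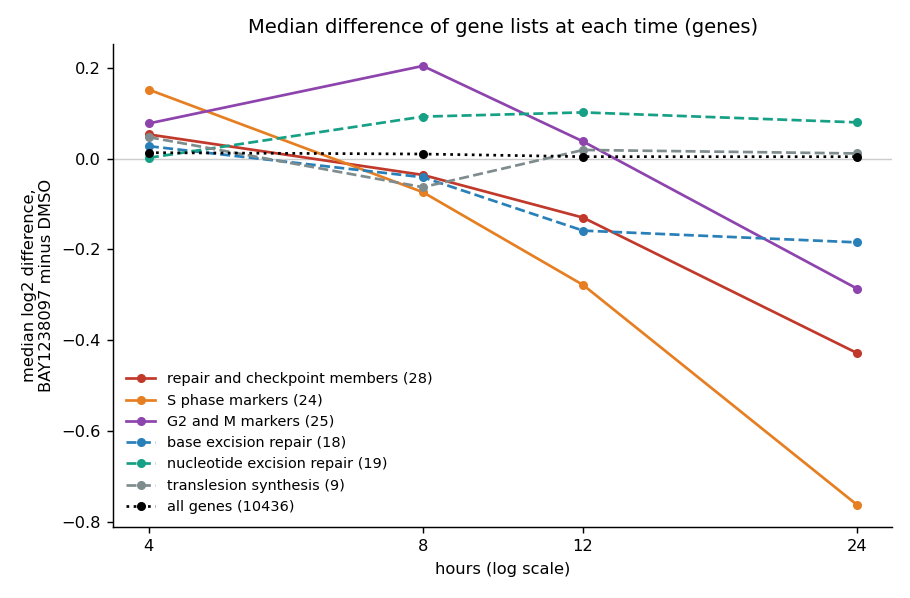
Median log2 difference (BAY1238097 minus DMSO) of gene lists against hours on a log scale, with the number of genes in brackets. The repair and checkpoint members reach -0.43 at 24 h, S phase markers -0.76 and G2 and M markers -0.29. Base excision repair moves from 0.03 at 4 h to -0.18 at 24 h, while nucleotide excision repair and translesion synthesis stay between -0.06 and 0.10.

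Levels also changed with time within each group. In DMSO 4 members rose with time (RAD54L, FANCL, PRKDC and ATM) and 0 fell, against 3.56% and 4.18% of all genes, and 22 of the 28 slopes were positive, against 53.4% of all genes. With BAY1238097 2 members fell with time, RAD54L by 0.21 ± 0.05 and BLM by 0.29 ± 0.05 per doubling of hours, and ATM rose by 0.40 ± 0.05 (adjusted p = 0.0432, 0.0177 and 0.00821), against 4.21% lower and 4.93% higher of all genes. The BAY1238097 slope was negative for 17 of the 28 members and for 48.8% of all genes. PRKDC had the steepest DMSO slope that passed, 0.43 ± 0.09 per doubling (adjusted p = 0.0378). With its probes averaged that slope was 0.23 and did not pass (limma adjusted p = 0.0705). With median scaling 0 of all genes passed in either group. The DMSO slopes were then larger (RAD54L 0.47, FANCL 0.50, PRKDC 0.67 and ATM 0.57), as was the BAY1238097 slope of ATM (0.55), while those of RAD54L and BLM shrank to -0.03 and -0.11. The falling BAY1238097 slopes of RAD54L and BLM passed in none of the fits that left out 1 time point, nor with array weights, and the slope of RAD54L was -0.12 without the 24 h arrays. The BAY1238097 slope of ATM did not pass without the 4 h or 8 h arrays. None of the 4 DMSO calls held without the 4, 8 or 12 h arrays, and that of RAD54L was also lost without the 24 h arrays. Without the 4 h or 8 h arrays, however, 0 of all genes passed for the DMSO slope. For the BAY1238097 slope at most 1 gene passed in each direction there. Those fits thus say nothing of these members in particular. Without the 12 h arrays 85 genes rose and 144 fell in DMSO, and 167 rose and 182 fell with BAY1238097. The DMSO slope of PRKDC was 0.20 without the 4 h arrays and 0.67 without the 24 h arrays.

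Promoter sequence is shown for the 5 members with a falling difference that have a window in the RefSeq table (GRCh38.p14), and for ATM. ATM was the member that rose in the mean effect. Its treatment by time did not pass (0.08 ± 0.06 per doubling of hours, limma adjusted p = 0.504). Each sequence is the 150 bases before the annotated start, 5′ to 3′ on the gene's strand. Capitals mark matches on either strand to the letters CCAAT, to the CHR motif (TTTGAA or TTCGAA) and to the ETS motif (CCGGAA).
RAD54L (chr1:46247538-46247687, plus strand): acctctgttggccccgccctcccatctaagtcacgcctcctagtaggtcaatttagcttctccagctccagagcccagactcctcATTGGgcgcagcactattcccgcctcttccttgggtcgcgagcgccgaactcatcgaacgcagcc
BLM (chr15:90717196-90717345, plus strand): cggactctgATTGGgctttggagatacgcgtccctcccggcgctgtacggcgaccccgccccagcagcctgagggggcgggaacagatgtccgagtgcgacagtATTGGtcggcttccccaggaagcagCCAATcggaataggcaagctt
CLSPN (chr1:35769979-35770128, minus strand): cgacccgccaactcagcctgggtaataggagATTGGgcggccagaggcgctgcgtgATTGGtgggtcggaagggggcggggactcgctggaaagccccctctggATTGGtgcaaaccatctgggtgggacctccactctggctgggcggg
FANCG (chr9:35079943-35080092, minus strand): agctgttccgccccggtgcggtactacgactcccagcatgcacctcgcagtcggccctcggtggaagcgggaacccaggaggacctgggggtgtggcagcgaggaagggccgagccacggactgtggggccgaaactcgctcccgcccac
EXO1 (chr1:241848054-241848203, plus strand): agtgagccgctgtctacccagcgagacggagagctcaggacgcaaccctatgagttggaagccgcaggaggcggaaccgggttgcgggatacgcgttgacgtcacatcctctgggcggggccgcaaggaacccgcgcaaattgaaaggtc
ATM (chr11:108222917-108223066, plus strand): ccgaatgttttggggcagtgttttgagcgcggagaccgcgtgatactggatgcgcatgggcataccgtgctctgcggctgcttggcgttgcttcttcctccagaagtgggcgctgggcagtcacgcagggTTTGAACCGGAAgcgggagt
RAD54L has 1 CCAAT match in this stretch, and BLM and CLSPN have 3 each. FANCG and EXO1 have no match there. In ATM the CHR letters and the ETS letters abut just before the start without overlapping. The same stretches of RAD51D, CHEK2, TOPBP1 and PARP1, which fell in the mean effect, are not printed. RAD51D and TOPBP1 have 1 ETS match each there, CHEK2 has 2 CCAAT matches and PARP1 has none. Within 250 bases before the start, with 1 window per gene, CCAAT was found for 12 of the 23 tested members that have a window and for 36.2% of tested genes with one. The ETS letters were found for 8 of 23 members, against 26.7% of tested genes. The E2F letters (TTTCCCGC, TTTCGCGC, TTTGCCGC or TTTGGCGC) were found for 1 member, PMS2, against 4.65%, the E-box CACGTG for 0, against 9.0%, and the CHR letters for 1, ATM, against 10.4%. A match describes these letters only, and no match says nothing of a factor's binding.

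Further genes of the same pathways moved both ways when averaged over the 4 times. Of 23 further homologous recombination genes tested, 5 rose and 3 fell, with a median of 0.03. HELQ, a helicase of break repair, rose by 0.61 ± 0.07, RECQL, a helicase of the same family as BLM, rose by 0.37 ± 0.10, and RAD51AP1, an accessory factor of recombination, fell by 0.41 ± 0.10 (adjusted p = 0.00206, 0.0349 and 0.0266). Of 18 further genes of cross-link repair, 3 rose and 3 fell (median -0.01). The nuclease scaffold SLX4 rose by 0.81 ± 0.12 and the nuclease subunit ERCC1 by 0.54 ± 0.12, while CENPX, which binds the FANCM translocase, fell by 0.58 ± 0.09. Of 24 further checkpoint genes, 3 rose and 2 fell (median 0.03). The fork protection partners TIPIN and TIMELESS went opposite ways in this average. TIPIN fell by 0.58 ± 0.10 (adjusted p = 0.00862) and TIMELESS rose by 0.43 ± 0.13 (0.0479). At 24 h both lay below DMSO, TIPIN at -0.94 and TIMELESS at -0.07. The histone variant H2AX rose by 0.36 ± 0.09.

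Of 12 further genes used in mismatch repair, 0 rose and 1 fell, the clamp loader subunit RFC3, by 0.85 ± 0.17 (adjusted p = 0.0126). At 24 h 10 of these 12 lay below DMSO, with a median difference of -0.48, and their median change of the difference was -0.27 per doubling of hours, against -0.15 for the 28 members. Of 9 further end joining genes, the ligase LIG3 fell by 0.53 ± 0.06 (adjusted p = 0.00215) and the polymerase POLM rose by 0.30 ± 0.08 (0.0348). Base excision repair split evenly, with 4 of 18 higher and 4 lower (median -0.15). The glycosylase MUTYH rose by 0.74 ± 0.09 and HMCES, which shields abasic sites, by 0.66 ± 0.12, while the uracil glycosylase UNG fell by 0.67 ± 0.16. UNG differed by -0.17 at 4 h and -1.25 at 24 h. In nucleotide excision repair 5 of 19 rose and 1 fell (median 0.03), led by the damage sensor XPC (0.60 ± 0.10), its partner CETN2 (0.50 ± 0.08) and GTF2H5 (0.37 ± 0.11), a subunit of TFIIH. Of 9 translesion synthesis genes 0 rose and 1 fell, the fork remodeller SMARCAL1, by 0.52 ± 0.06 (adjusted p = 0.00290). The call rates over all genes were those given above, 15.5% higher and 14.8% lower.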

How the data were processed

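The authors deposited linear probe intensities for 47231 probes, not normalised, and a table of log2 values that equal quantile normalised log2 intensities within 0.00126. Per the labels, biotin cRNA was made with an Ambion kit for Illumina arrays. Detection p-values were not used here, and background was the brightness of 437 olfactory receptor probes. A probe was kept where under 5% of these were as bright on at least 4 of the 8 arrays, and a gene was its probe with the highest mean of the 8 deposited values. Quantile normalised log2 intensities were fitted with limma 3.58.1 in R 4.3.3 (lmFit, eBayes) over all 10436 genes, with the time point as a factor, and p-values were adjusted by Benjamini-Hochberg. Treatment by time used centred log2 hours, and the slopes of each group used log2 hours. Errors beside changes are standard errors. The arrays of a time were paired by the labels, and their deviations correlated with r = 0.59, 0.436, 0.678 and 0.483 at 4, 8, 12 and 24 h. Scripts were tested on simulated data. Figures used matplotlib 3.10.9 in Python 3.11.15.

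The members and lists were chosen with earlier results of these data known. Every member was to be named, and of each other pathway list up to 3 genes with the widest change among those passing. The files name no genome build, and the windows of members with a treatment by time effect were chosen after their values were seen. Windows had been planned for members that passed for the mean effect, and of these only that of ATM is printed. Alternatives were other scaling, background correction, filters, probe averages, variance models and leaving out each time point. Promoter windows and symbols of neighbouring genes came from RefSeq.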

Additional observations from a re-analysis of the deposited data

Results flagged for a closer look

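In 84 groups of 4 values (each tested member's BAY1238097 arrays, DMSO arrays and differences), 6 held a value whose gap to its nearest neighbour, over the whole range, passed Dixon's critical value for 4 values, where chance gives about 1 in 20. The 24 h difference stood apart for CHEK2 (ratio 0.952, at -0.58 with the others at -0.23 to -0.25), MSH6 (0.917, at -0.34) and XRCC3 (0.832, at -0.40). EXO1 stood apart with BAY1238097 at 24 h (0.841, level 8.12). In DMSO the 4 h array stood apart for XRCC2 (0.956, level 9.99) and BRCA1 (0.856, level 7.96).

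The treatment effect differed between times by the treatment by time term for EXO1 (-0.46 per doubling of hours), RAD54L (-0.44), FANCG (-0.43), RAD54B (-0.40), BLM (-0.36) and CLSPN (-0.35), as given above.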

How the results depend on the processing

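With the deposited values every member call stayed as it was. Median scaling gave 0 higher and 10 lower members for treatment and 0 calls of either direction for the time slopes of BAY1238097 and of DMSO, and the same numbers came with background correction added (0 and 10, and 0). Keeping all dim probes, 2 members had a rising DMSO slope. With a variance trend 2 had a rising DMSO slope and 1 a falling BAY1238097 slope. With array weights 2 had a rising DMSO slope, 0 a falling BAY1238097 slope and 0 a falling treatment by time term. Without the pairing by time (no replicate block), 0 members were higher and 1 lower, XRCC5, and all genes gave 723 higher and 762 lower. Leaving out each time point in turn gave 0 to 1 higher and 0 to 8 lower members for treatment, 2 to 11 lower and 0 higher for treatment by time, 0 to 2 higher and 0 to 2 lower for the BAY1238097 slope, and 0 to 7 higher and 0 to 3 lower for the DMSO slope. The members' median treatment effect ranged from -0.20 without the 4 h arrays to -0.01 without the 24 h arrays. For all genes, leaving out each time point gave 644 to 2085 higher and 611 to 2036 lower for treatment. For treatment by time it gave 58 to 597 higher and 80 to 703 lower. The BAY1238097 slope passed for 0 to 658 genes higher and 1 to 789 lower, and the DMSO slope for 0 to 1072 and 0 to 1086. The cause of these changes was not tested. Brightness over background limits the size of changes in dim genes such as CLSPN and RAD51D.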

Other observations

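Several members start head to head with another gene in the RefSeq promoter table, on the opposite strand and within 1000 bases. This held for 15 of the 23 tested members with a window, in 16 pairs, and 7 of the partners were tested. The share over all genes was not counted, so the number says nothing of these members in particular. ANKRD49, 140 bases from the start of MRE11, rose by 0.37 ± 0.06 (adjusted p = 0.00768), with differences of 0.28, 0.47, 0.33 and 0.42, while MRE11 was at -0.28, -0.09, -0.04 and -0.47. NPAT, a coactivator of histone genes 429 bases from the start of ATM, had a change of 0.08 ± 0.07 (adjusted p = 0.444), against 0.28 for ATM. HSCB, beside CHEK2, differed by -0.19 at 4 h and 0.48 at 24 h and did not pass for the mean effect (adjusted p = 0.328), whereas CHEK2 was at -0.23 and -0.58. DESI1, beside XRCC6, differed by 0.24, 0.14, -0.13 and -0.31, next to 0.25, -0.05, -0.001 and -0.33 for XRCC6. No test of these pairs against each other was run.

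Among the 13 members with several probes above background, the mean difference had the same sign for all probes of 12, with XRCC2 the exception. At 24 h the signs matched for 11, with XRCC2 and LIG4 the exceptions.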
